A study of Mus musculus with 9 samples.

Results

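The adducins Add1, Add2 and Add3, the actin bundler Espn and the membrane-bending, actin-binding gene Mtss1 were followed in mouse tumour cells grown with or without macrophages or monocytes. These 5 genes, of 12339 in the deposited table, were found by symbol and were selected on their measured values in the same group comparisons that are described here. Their levels and differences are therefore given as a description, with errors and no test. RNA was measured by sequencing in 9 libraries of KP-GFP tumour cells, cells that carry green fluorescent protein, which form 3 groups of 3: tumour spheroids alone, spheroids with lung tissue-resident macrophages (TRMs, labelled as alveolar macrophages), and spheroids with bone-marrow monocytes. The strain given for every sample is C57BL/6, and the labels name KP-GFP as the tumour cells of every group, so no other tumour line was compared. Each spheroid was started from 2500 tumour cells, with 5000 added TRMs or monocytes in the co-cultures, and was cultured over 7 days. GFP-positive cells were then sorted from 32 pooled spheroids a condition, so each library is an average over spheroids. Replicates are numbered in the labels with no statement that they were separate cultures. Each p-value therefore reflects only how far these libraries scatter, and that scatter may be technical.

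Adducins cap the fast-growing ends of short actin filaments and join them to spectrin, the flexible network that lies under the plasma membrane. The protein works as an assembly of alpha-adducin (Add1) with beta-adducin (Add2) or gamma-adducin (Add3); alpha and gamma are found in most cells, whereas beta is best known from red blood cells and brain. Espin, from Espn, ties actin filaments into the tight parallel bundles of microvilli and of the stereocilia of hair cells, and MTSS1 (missing in metastasis) binds actin monomers and curves the membrane through its I-BAR domain.

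The 9 libraries held between 16001895 and 32771448 reads. A level below is the deposited value in CPM, reads scaled to a common library size, and every value carries an added 0.5 read. Of 11 listed tumour epithelial markers 9 were in the table, and they summed to 15259 to 17117 CPM alone, 15320 to 19236 CPM with TRMs and 10500 to 16510 CPM with monocytes. By limma adjusted p under 0.05, 0 of the 9 were higher in either co-culture, and 3 were lower with monocytes: the cadherin Cdh1 (1.95-fold) and the claudins Cldn4 (2.09-fold) and Cldn7 (2.13-fold). The count lower with monocytes was 4 with library totals or without TRM replicate 1, and 6 without monocyte replicate 3. With DESeq2 or a replicate block it was 5, with Cldn3 and Epcam added. Over all genes 12.7% were called lower with monocytes and 8.15% with TRMs. With TRMs Cldn4 was lower (1.65-fold, limma adjusted p = 0.0477), a call lost with edgeR and when monocyte replicate 2, TRM replicate 2 or 3, or replicate 1 or 3 of the spheroids alone was left out. In the main fit only Cdh1, Cldn4 and Cldn7 were called between groups in which the 5 genes also differ. Krt8 and Krt18 had log2 differences of 0.05 and -0.05 with TRMs and of -0.21 and -0.23 with monocytes. The part of these markers in the differences of the 5 genes was not tested. The library kit is not stated to mark strand, and Add2 is the only one of the 5 genes that overlaps an annotated gene on the opposite strand, Gm44089, with which 2.53% of its 50-base words are shared. Add1 shares 0.169% of its words with other genes, and Add3, Espn and Mtss1 share 0%.

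Promoters of 4 of the 5 genes matched the RefSeq table (build GRCm38.p6), and the 250 bases before the 5′-most start of each are shown because Add2 stood higher and Add3 lower in both co-cultures, and Espn was close to silent in spheroids alone. Capitals mark the core of the hypoxia response element, ACGTG or GCGTG, on either strand.
Add1, chr5:34573414-34573663, plus strand: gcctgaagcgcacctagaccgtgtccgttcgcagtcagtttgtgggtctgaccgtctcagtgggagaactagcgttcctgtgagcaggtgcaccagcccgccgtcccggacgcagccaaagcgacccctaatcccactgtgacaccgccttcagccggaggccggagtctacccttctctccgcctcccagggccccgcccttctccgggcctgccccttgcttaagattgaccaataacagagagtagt
Add2, chr6:86028431-86028680, plus strand: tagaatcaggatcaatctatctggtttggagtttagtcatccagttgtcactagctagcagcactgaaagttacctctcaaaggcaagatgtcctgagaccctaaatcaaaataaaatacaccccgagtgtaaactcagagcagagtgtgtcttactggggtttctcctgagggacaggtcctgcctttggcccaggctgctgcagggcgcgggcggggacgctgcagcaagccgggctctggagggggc
Add3, chr19:53140193-53140442, plus strand: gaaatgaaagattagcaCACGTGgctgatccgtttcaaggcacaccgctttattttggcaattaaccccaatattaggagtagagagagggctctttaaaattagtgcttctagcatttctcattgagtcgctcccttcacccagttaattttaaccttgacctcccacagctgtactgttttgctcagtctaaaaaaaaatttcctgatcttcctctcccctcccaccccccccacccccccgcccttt
Espn, chr4:152152390-152152639, minus strand: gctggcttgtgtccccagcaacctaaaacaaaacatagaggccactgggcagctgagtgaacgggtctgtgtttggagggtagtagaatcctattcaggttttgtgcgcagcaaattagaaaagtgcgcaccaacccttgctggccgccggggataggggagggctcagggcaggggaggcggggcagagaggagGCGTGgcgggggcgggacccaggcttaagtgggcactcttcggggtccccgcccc

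The 4 windows differ in base composition. The Add1 window is 62.4% G and C with 17 CG pairs, the Add2 window 53.2% with 6, the Add3 window 46.0% with 5 and the Espn window 61.6% with 11, beside medians of 52.4% and 6 over all 32851 promoter windows of this length in the table. The hypoxia core is absent from the Add1 and Add2 windows, stands once in the Espn window as GCGTG, and is read on both strands of the palindrome CACGTG in the Add3 window. Over all windows, ACGTG was found in 16.6%, GCGTG in 28.2% and one or the other in 38.6%. All 4 windows hold the GC box GGGCGG, which 32.7% of all windows hold. The AP-1 motif TGANTCA (6.75% of all windows), the TEAD motif GGAATG (12.6%) and the TATA motif TATAAA (12.4%) are in none of the 4, both strands counted for each motif. Add3 and Espn have 3 starts each in the table, and their other windows differ: the second Add3 window holds GCGTG 2 times and GGGCGG 4 times and the third holds neither, while the second Espn window holds neither and the third holds each once. The Espn start shown, at 152152389, lies just upstream of the 5′ end of the gene in GENCODE M21, at 152152371. The bases just after that start thus begin outside the annotated gene, so the search for them in its transcripts could not find them. These matches describe letters in the windows and say nothing of which factor binds there.

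Add2 showed the largest shift of the 3 adducins. It lies at chr6:86028681-86124409 on the plus strand (mm10, GENCODE M21). Its level was 23.7, 27.2 and 22.1 CPM in the 3 libraries of spheroids alone, 99.7, 139 and 99.5 CPM with TRMs, and 131, 149 and 118 CPM with monocytes. Every co-culture library was higher than every library alone, and the ranges of the co-cultures overlapped each other. The means were 24.4 ± 2.62 CPM alone, 113 ± 22.9 CPM with TRMs and 132 ± 15.6 CPM with monocytes (SD, n = 3 each). That is a log2 difference from spheroids alone of 2.20 (SE 0.17, 4.59-fold higher) with TRMs and of 2.44 (SE 0.17, 5.43-fold higher) with monocytes. The difference of TRM from monocyte co-culture was -0.24 (SE 0.17), with a 95% interval of -0.60 to 0.12. In bulk RNA, fewer cells of a type and less RNA per cell cannot be told apart, here and in every value that follows.

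Add3 was lower in both co-cultures. The gene lies at chr19:53140443-53247399 on the plus strand. Levels were 98.5, 72.6 and 98.6 CPM alone, 65.6, 55.1 and 68.7 CPM with TRMs, and 39.5, 46.0 and 51.1 CPM with monocytes. The 3 groups did not overlap: spheroids alone were highest and the monocyte co-culture lowest. The lowest library alone, replicate 2, stood close to the highest TRM library. The means were 89.9 ± 15.02 CPM, 63.1 ± 7.10 CPM and 45.5 ± 5.77 CPM (SD, n = 3 each). The log2 difference from alone was -0.50 (SE 0.17, 1.42-fold lower) with TRMs and -0.97 (SE 0.17, 1.97-fold lower) with monocytes, and the TRM co-culture stood 0.47 (SE 0.17, 1.39-fold) above the monocyte co-culture.

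Add1, at chr5:34573664-34632308 on the plus strand, was the most abundant adducin per kilobase in every library. Its levels were 262, 258 and 266 CPM alone, 338, 412 and 366 CPM with TRMs, and 419, 386 and 299 CPM with monocytes. Both co-cultures lay above the narrow range of spheroids alone and overlapped each other, and monocyte replicate 3 was the nearest to that range. The means were 262 ± 3.78 CPM, 372 ± 37.6 CPM and 368 ± 62.0 CPM (SD, n = 3 each). The log2 difference from alone was 0.50 (SE 0.14, 1.41-fold higher) with TRMs and 0.47 (SE 0.14, 1.39-fold higher) with monocytes. The co-cultures differed from each other by 0.03 (SE 0.14), with a 95% interval of -0.28 to 0.33, and that small difference was negative when reads were scaled by library totals (-0.01) and without monocyte replicate 3 (-0.12).

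**Figure D1:**
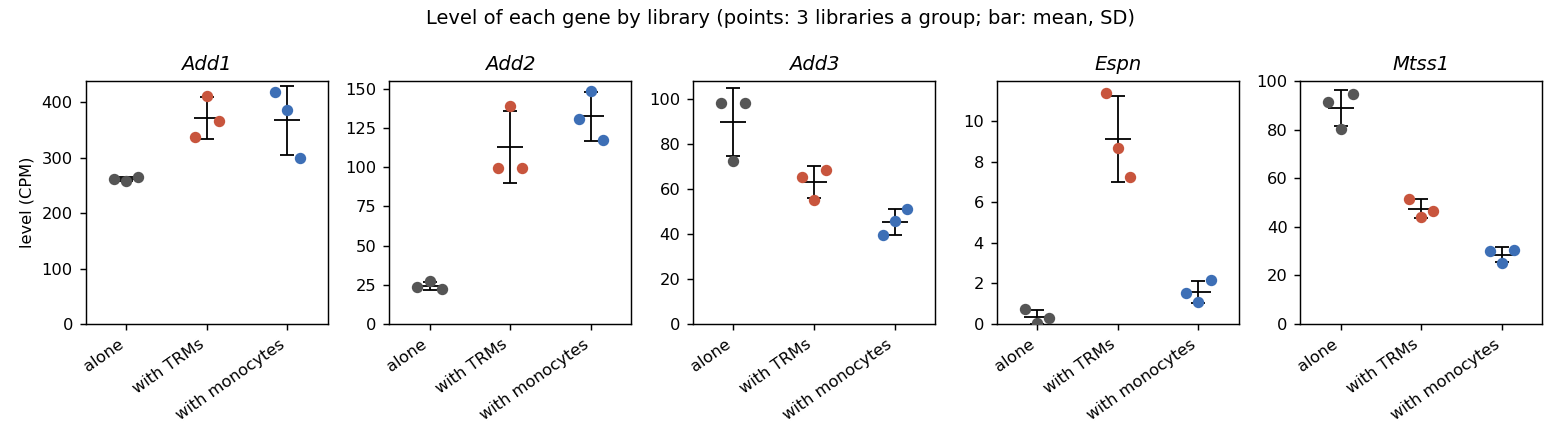
Level in CPM (vertical axis, linear, starting at 0 in each panel) of Add1, Add2, Add3, Espn and Mtss1 in each library (points), with the mean and SD of the 3 libraries of each group (bars). Add2 sits between 99.5 and 149 in the co-cultures against 22.1 to 27.2 alone, while Add3 and Mtss1 step down from alone to TRM to monocyte co-culture.

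Adducin genes can be compared with each other once levels are divided by exon length. Per kilobase of summed exon, Add1 stood at 30.6 ± 0.442 CPM per kb alone, Add3 at 14.1 ± 2.35 and Add2 at 2.40 ± 0.258 (SD, n = 3 each), so the order alone was Add1, Add3, Add2. With TRMs Add2 reached 11.1 ± 2.26 CPM per kb and Add3 stood at 9.90 ± 1.11, which do not differ beyond their spread, and their order turned when the length of the longest transcript was used (13.8 ± 2.80 and 14.3 ± 1.60). With monocytes Add2 stood at 13.1 ± 1.54 CPM per kb and Add3 at 7.14 ± 0.905, and Add2 was above Add3 in all 3 libraries. The ratio of Add2 to Add3 per kilobase was 0.151, 0.236 and 0.141 in the libraries alone. It was 0.956, 1.59 and 0.911 in the TRM libraries and 2.08, 2.03 and 1.45 in the monocyte libraries. The ratio was thus below 1 in each library alone and above 1 in each library with monocytes, and the TRM libraries lay on both sides.

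As a share of the summed adducin level, Add2 made up 5.13% ± 0.837 alone, 17.2% ± 2.07 with TRMs and 20.7% ± 1.54 with monocytes. Add3 made up 29.8% ± 3.52, 15.5% ± 2.82 and 11.5% ± 2.86. Add1 made up 65.1% ± 2.71, 67.3% ± 1.04 and 67.8% ± 3.95 (SD, n = 3 each). The summed level of the 3 genes was 47.1 ± 2.51 CPM per kb alone, 64.5 ± 5.57 with TRMs and 63.2 ± 7.52 with monocytes. With the longest transcript as the length, an alternative chosen after the data were seen, the Add2 share was 3.70%, 12.5% and 15.1%, and the Add3 share 24.995%, 13.1% and 9.79%.

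**Figure D2:**
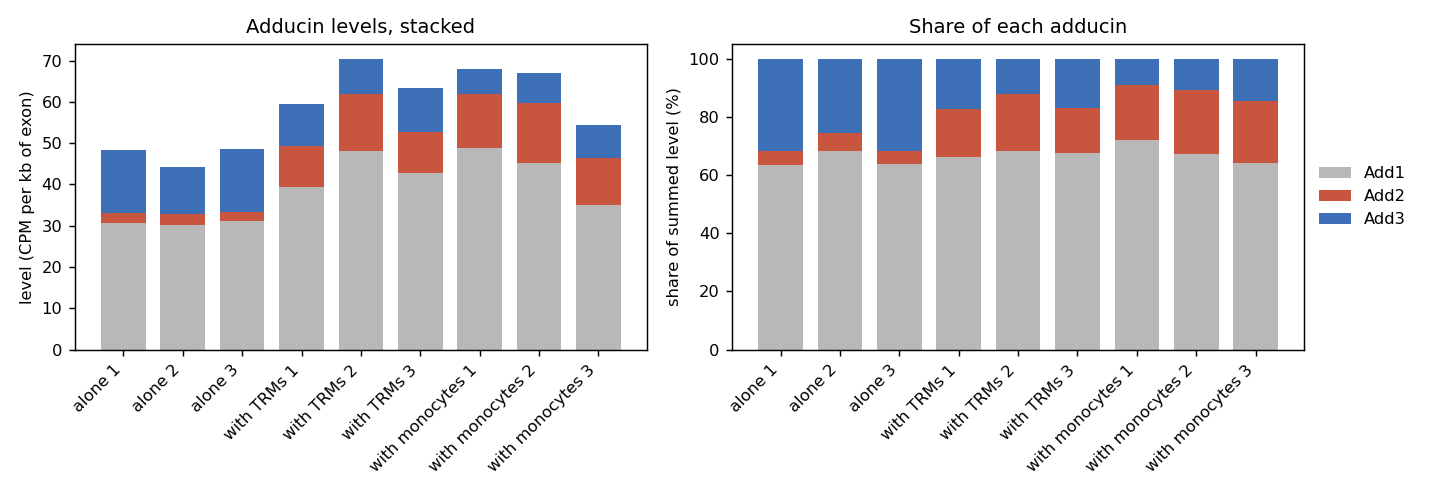
Left, stacked levels of Add1, Add2 and Add3 in CPM per kb of exon in each of the 9 libraries; right, the share of each gene in that sum, in percent. The Add2 band widens from 4.48% to 6.07% alone to 15.5% to 21.9% in the co-cultures, and the Add3 band narrows.

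Espn had few reads in spheroids alone. The gene lies at chr4:152120331-152152371 on the minus strand. Its level was 0.736, 0.0679 and 0.285 CPM alone, 11.4, 8.69 and 7.27 CPM with TRMs, and 1.54, 1.07 and 2.17 CPM with monocytes. The 3 groups did not overlap, and the TRM co-culture stood far above the rest. Espn was still the lowest of the 5 genes per kilobase in every library, at 1.10 ± 0.255 CPM per kb with TRMs (SD, n = 3).

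The size of the Espn difference depends on very few reads. The 3 libraries alone held 26 Espn reads in all, between 1 and 16 each, against 507 with TRMs (147 to 182 each) and 104 with monocytes (25 to 51 each). The log2 difference from alone was 5.21 (SE 0.76, 37.0-fold) with TRMs and 2.65 (SE 0.76, 6.30-fold) with monocytes, and 2.55 (SE 0.76, 5.87-fold) between TRM and monocyte co-culture. Without alone replicate 1 the folds against alone were 64.4 and 10.97, and without alone replicate 2, which held 1 read, they were 19.6 and 3.33. On the log2(value + 1) scale, which draws low values together, they were 7.47 and 1.91, and the TRM co-culture was 3.91-fold above the monocyte co-culture. Summed reads scaled by depth gave a ratio of 26.4 with TRMs (95% exact interval 17.8 to 40.8) and of 4.70 with monocytes (3.04 to 7.53), intervals that cover counting error only. The ratio of TRM to monocyte co-culture on summed reads was 5.61 (4.53 to 6.99).

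Mtss1 was highest in spheroids alone, lower with TRMs and lowest with monocytes. The gene lies at chr15:58941234-59082005 on the minus strand. Levels were 91.4, 80.4 and 94.9 CPM alone, 51.7, 44.2 and 46.6 CPM with TRMs, and 30.2, 25.1 and 30.4 CPM with monocytes. The 3 groups were well separated, with narrow ranges in each. The means were 88.9 ± 7.56 CPM, 47.5 ± 3.79 CPM and 28.6 ± 2.96 CPM (SD, n = 3 each). The log2 difference from alone was -0.90 (SE 0.15, 1.87-fold lower) with TRMs and -1.64 (SE 0.15, 3.12-fold lower) with monocytes, and the TRM co-culture was 0.74 (SE 0.15, 1.67-fold) above the monocyte co-culture.

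**Figure D3:**
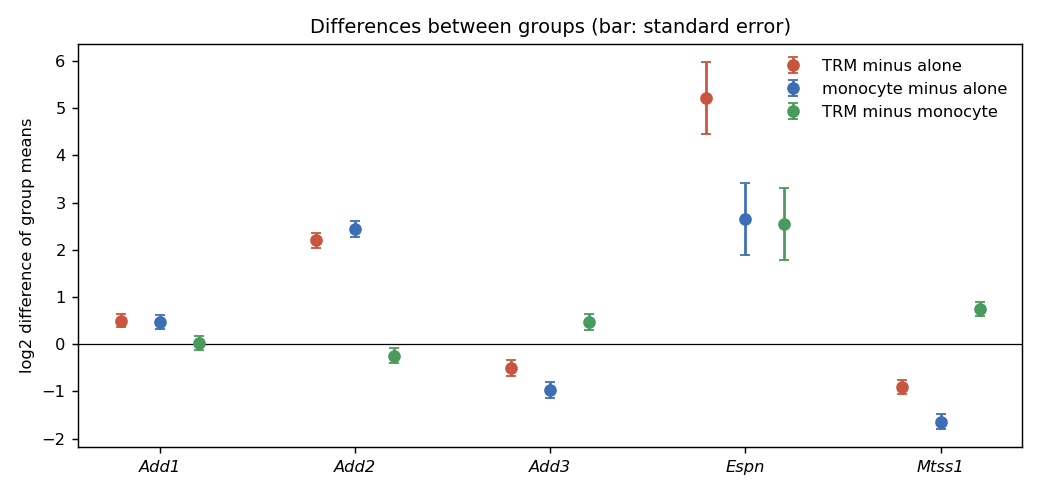
Log2 difference of group means (vertical axis) for each of the 5 genes in 3 comparisons, with the standard error from the limma fit over all 9 libraries as bars. Add1, Add2 and Espn lie above 0 against spheroids alone and Add3 and Mtss1 below; Espn has the widest bars (SE 0.76).

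All 5 genes had groups that did not overlap in TRM against alone, where 39.3% of the 12326 genes tested did not overlap in one direction or the other, and all 5 in monocyte against alone, where the share was 40.5%. In TRM against monocyte, 3 of the 5 did not overlap (Add3, Espn and Mtss1, all higher with TRMs), beside 16.2% of all genes. Since these contrasts chose the genes, nothing is read from those counts. Both comparisons against alone also share the same 3 control libraries. In the authors' deposited tables the log2 fold changes with TRMs were 0.48 for Add1, 2.18 for Add2, -0.53 for Add3, 4.23 for Espn and -0.92 for Mtss1. With monocytes, the authors' deposited table gives 0.47, 2.41, -1.003, 1.80 and -1.66 in the same order.

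The sorted cells also held RNA of genes known from macrophages. Of 29 listed macrophage and monocyte markers 16 were in the table, and they summed to 166 to 253 CPM alone, 177 to 328 CPM with TRMs and 188 to 255 CPM with monocytes. Cd14 was the largest part of that sum. By limma, 2 of the 16 were higher and 0 lower with TRMs than alone, and 2 were higher and 3 lower with monocytes. Over all genes 10.2% were higher and 8.15% lower with TRMs, and 14.7% and 12.7% with monocytes. The higher count with TRMs was 3, with Csf1r added, by DESeq2, on the log2(value + 1) scale and with only the 2 groups compared. It was also 3 without alone replicate 2 (Csf1r) and without TRM replicate 2 (Lyz2). The 3 lower with monocytes were Chil3, Ptprc and Siglecf. They numbered 1 when any one library alone or monocyte replicate 1 was left out, and 2 without TRM replicate 2 or 3 or monocyte replicate 3. By method they numbered 2 with edgeR or on the log2(value + 1) scale, 1 with only the 2 groups compared, and 4 with DESeq2 (Mpeg1 added). The 2 that rose were Mrc1, the mannose receptor, from 5.12 to 32.9 CPM with TRMs and 39.2 CPM with monocytes, and F13a1, a coagulation factor subunit, from 0.960 to 13.4 CPM in each co-culture. Ptprc, the pan-leukocyte gene CD45, stood at 1.93 CPM alone, 1.95 CPM with TRMs and 0.241 CPM with monocytes. No marker in the table was at 0 reads in a whole group. The part of such RNA in the levels of the 5 genes was not tested. The 3 erythroid, megakaryocyte and lymphoid markers in the table, of 16 listed, summed to 0.793 to 5.70 CPM over the 9 libraries. The erythroid marker Klf1 stood at 0.863 CPM alone, 0.679 with TRMs and 0.836 with monocytes. The megakaryocyte marker Itga2b stood at 1.09, 3.29 and 3.00 CPM, and the lymphoid marker Ms4a1 at 0.840, 0.360 and 0.403 CPM. None of the 3 was called, and no listed globin gene was in the table, so the set says little of red cells. The 4 fibroblast and endothelial markers in the table, of 11 listed, summed to 4.29 to 14.3 CPM.

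Other genes followed these patterns closely over the 9 libraries. Pearson correlations of log2 levels are given as a description, since the 9 points fall into 3 groups and share library depth. Closest to Add2, among 9880 genes compared, were the acyl-CoA thioesterase Acot7 (r = 0.991), the carboxypeptidase Cpe (0.991) and the macrophage marker Mrc1 (0.990). For Add3 they were the protease Sppl2a (0.980), Scamp1 (0.980) and the AP-1 subunit Jun (0.979), which stood at 3291 CPM alone, 2044 CPM with TRMs and 1484 CPM with monocytes. For Mtss1 they were the kinase Map3k1 (0.987), the non-muscle myosin heavy chain Myh14 (0.986) and Anks1 (0.984). Add1 was nearest to the phosphodiesterase Pde1b (0.989), the transcription factor Tfe3 (0.986) and Azin2 (0.983), and Espn, among 9881 genes, to the keratin Krt79 (0.974), the tetraspanin Cd81 (0.967) and Maged2 (0.963). Among the 5 genes themselves, Mtss1 ran with Add3 (r = 0.94) and against Add2 (r = -0.93).

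The actin and membrane-skeleton genes around these 5 were taken from 7 lists chosen by function, with earlier results of these data known, so their shares are a description and not independent evidence. The lists have 237 entries, of which 205 were tested. Calls are limma adjusted p under 0.05 over all 12326 genes. With TRMs 46 of the 205 rose and 21 fell against alone (22.4% and 10.2%), where 10.2% of all genes rose and 8.15% fell. The median log2 difference was 0.16 in the lists and -0.0019 over all genes. With monocytes 50 rose and 37 fell (24.4% and 18.05%), where 14.7% of all genes rose and 12.7% fell, with medians of 0.05 and -0.016. Scaling by library totals left 36 higher and 26 lower in the lists with TRMs, so the share of calls that were higher moved from 68.7% to 58.1%. Over all genes that share moved from 55.6% (1257 higher and 1005 lower) to 43.5% (1003 and 1302). With monocytes the same scaling gave 41 higher and 40 lower in the lists (50.6% higher, from 57.5%), and over all genes the balance turned from 1806 higher and 1560 lower to 1603 and 1758. The excess of higher over lower calls in the lists was thus all but absent with monocytes under that scaling. The TRM counts in the lists were 28 and 11 without alone replicate 1, 26 and 9 without alone replicate 3, and 24 and 12 without TRM replicate 2. Of the list genes 51 were called in both co-cultures and 0 of them in opposite directions, in comparisons that share controls.

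**Figure D4:**
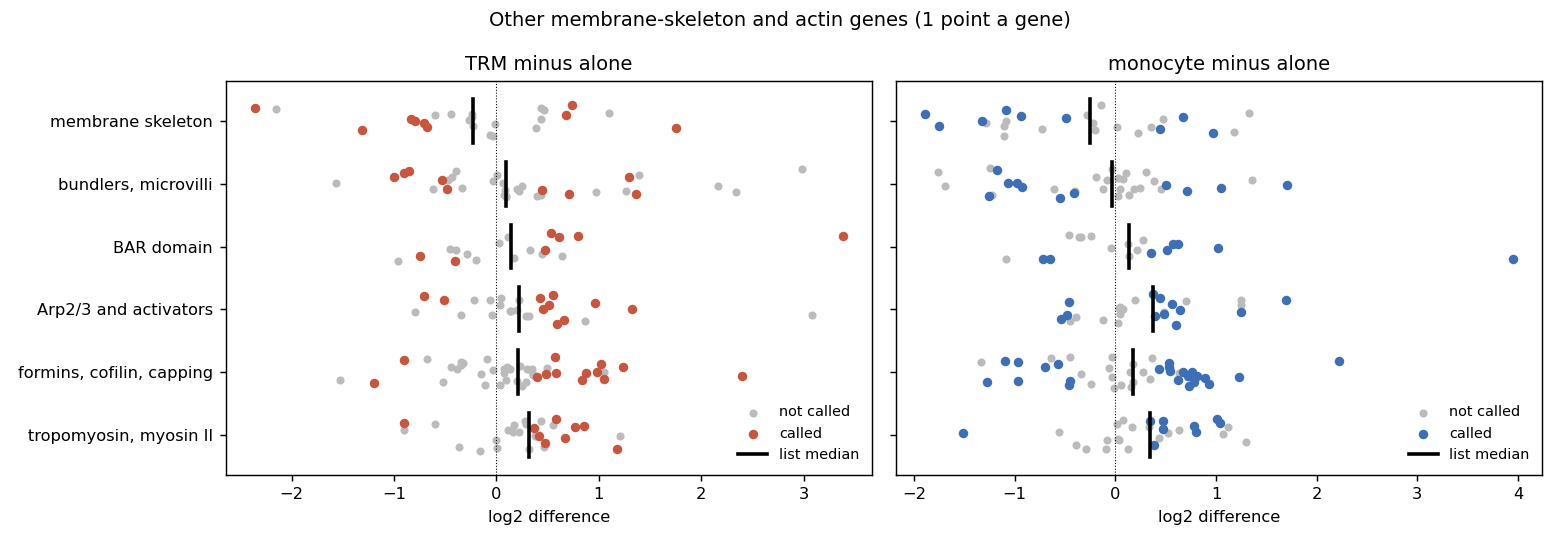
Log2 difference from spheroids alone (horizontal axis) of each tested gene in 6 of the lists (rows), with TRMs on the left and with monocytes on the right; coloured points passed limma adjusted p under 0.05, grey points did not, and the black bar is the list's median. The medians run from -0.23 for the membrane skeleton to 0.32 for tropomyosins and myosin II with TRMs.

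In the spectrin membrane skeleton, the network adducin binds, 3 of 24 tested genes rose and 6 fell in each co-culture against alone, with medians of -0.23 with TRMs and -0.25 with monocytes. The risen share of 12.5% lies near the 10.2% and 14.7% of all genes, and the fallen share was 25%, beside 8.15% and 12.7%. Sptan1 and Sptbn1 did not pass the test. Alpha-spectrin Sptan1 was at 532 ± 31.8 CPM alone, 512 ± 77.8 CPM with TRMs and 455 ± 10.3 CPM with monocytes (SD, n = 3 each), and beta-spectrin Sptbn1 at 212 ± 17.6, 183 ± 31.3 and 192 ± 14.7 CPM. Protein 4.1 (Epb41) and dematin (Dmtn), which bind the spectrin-actin junction alongside adducin, did not pass in either comparison (log2 differences of -0.27 and 0.43 with TRMs, -0.28 and 0.01 with monocytes). Membrane proteins and their anchors were among the members that moved. Slc2a1, the glucose transporter that adducin and dematin link to the membrane skeleton of human red cells, rose from 175 ± 32.2 CPM to 595 ± 145 CPM with TRMs (log2 difference 1.76, limma adjusted p = 3.65e-05) and to 341 ± 34.9 CPM with monocytes (0.97, adjusted p = 0.00147). Atp1b1, the beta subunit of the sodium pump, fell from 287 ± 73.7 CPM to 57.8 ± 25.2 CPM with TRMs (limma adjusted p = 0.000355) and 81.6 ± 40.5 CPM with monocytes (0.0011). Ankyrin-G (Ank3), which ties membrane proteins to spectrin, fell by 1.31 on the log2 scale with TRMs (limma adjusted p = 0.00161) and by 1.75 with monocytes (0.00015), and the band 4.1 relative Epb41l4b fell by 0.79 and 1.33 (0.00292 and 5.93e-05). Tmod3, which caps the slow-growing ends of the same filaments, rose 1.61-fold with TRMs (limma adjusted p = 0.00608) and had a log2 difference of 0.23 with monocytes (adjusted p = 0.282).

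Among actin bundlers and genes of microvilli and stereocilia, the company of espin, 4 of 33 rose and 5 fell with TRMs, and 4 rose and 7 fell with monocytes. The risen share was 12.1% in each co-culture, near the 10.2% and 14.7% of all genes. The fallen share was 15.2% with TRMs and 21.2% with monocytes, beside 8.15% and 12.7% of all genes. The medians were 0.09 and -0.03. The fallen members with TRMs numbered 0 without alone replicate 1, alone replicate 3 or TRM replicate 2 and 1 without TRM replicate 3, and the risen members 7 without monocyte replicate 1. The fallen members with monocytes numbered 4 without alone replicate 1 or monocyte replicate 1 and 3 without alone replicate 3 or monocyte replicate 2. Myo3b, a myosin that carries espin to the tips of actin protrusions, was at 34.6 ± 0.549 CPM alone, 89.1 ± 3.47 CPM with TRMs and 36.9 ± 13.3 CPM with monocytes (SD, n = 3 each). It rose with TRMs (log2 difference 1.36, limma adjusted p = 0.0006), and its difference with monocytes was 0.03 (adjusted p = 0.929). Moesin (Msn), a linker of actin to the membrane, rose 2.45-fold with TRMs and 2.07-fold with monocytes (limma adjusted p = 0.000575 and 0.00163). Its relative ezrin (Ezr) did not pass (log2 differences 0.09 and -0.03). The bundler plastin-1 (Pls1) fell 2.38-fold with monocytes (limma adjusted p = 0.00334) and 1.81-fold with TRMs (0.036), the latter lost without alone replicate 1, alone replicate 3, TRM replicate 2 or TRM replicate 3 (0.0906 to 0.149). Plastin-3 (Pls3) and Eps8 did not pass, with log2 differences of 0.43 and 0.08 with TRMs and of 0.39 and 0.46 with monocytes. The bundler fascin (Fscn1) stood at 2.20 ± 0.468 CPM alone, 5.73 ± 0.747 CPM with TRMs and 9.31 ± 8.33 CPM with monocytes; its call with monocytes (limma adjusted p = 0.0264) did not hold when alone replicate 1, alone replicate 3 or monocyte replicate 1 was left out or only the 2 groups were fitted (0.056 to 0.103).

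In the BAR-domain list, which holds the relatives of MTSS1, 5 of 18 rose and 2 fell with TRMs and 6 rose and 2 fell with monocytes, with medians of 0.15 and 0.13. The risen share was 27.8% with TRMs and 33.3% with monocytes, beside 10.2% and 14.7% of all genes. The fallen share of 11.1% in each co-culture lay near the 8.15% and 12.7% of all genes. The risen members with TRMs numbered 3 without alone replicate 3 and 2 without TRM replicate 2. The fallen members with TRMs numbered 0 without alone replicate 3 and 1 when TRM replicate 2 or 3 or alone replicate 1 or 2 was left out, and those with monocytes 4 without TRM replicate 1. The nearest relative, Mtss2, was at 7.31 ± 1.39 CPM alone, 5.40 ± 1.31 CPM with TRMs and 6.37 ± 3.09 CPM with monocytes and did not pass. The I-BAR gene Baiap2 (IRSp53) had the direction opposite to Mtss1: it rose 1.54-fold with monocytes (limma adjusted p = 0.00583) and 1.39-fold with TRMs (0.0336). The TRM call of Baiap2 did not hold with library totals, or when any one library alone or TRM replicate 1 or 2 was left out (0.0505 to 0.147). Bin1, an amphiphysin relative that bends membranes inward, rose from 58.4 ± 2.29 CPM to 102 ± 7.82 CPM with TRMs and 120 ± 18.8 CPM with monocytes (limma adjusted p = 0.00214 and 0.000268). Snx18 and Fnbp1l fell with monocytes (log2 differences -0.65 and -0.72, limma adjusted p = 0.0024 and 0.00274). With TRMs Snx18 also passed as lower (limma adjusted p = 0.0436), a call that held in 11 of 17 other settings, and Fnbp1l did not pass (0.204).

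**Figure D5:**
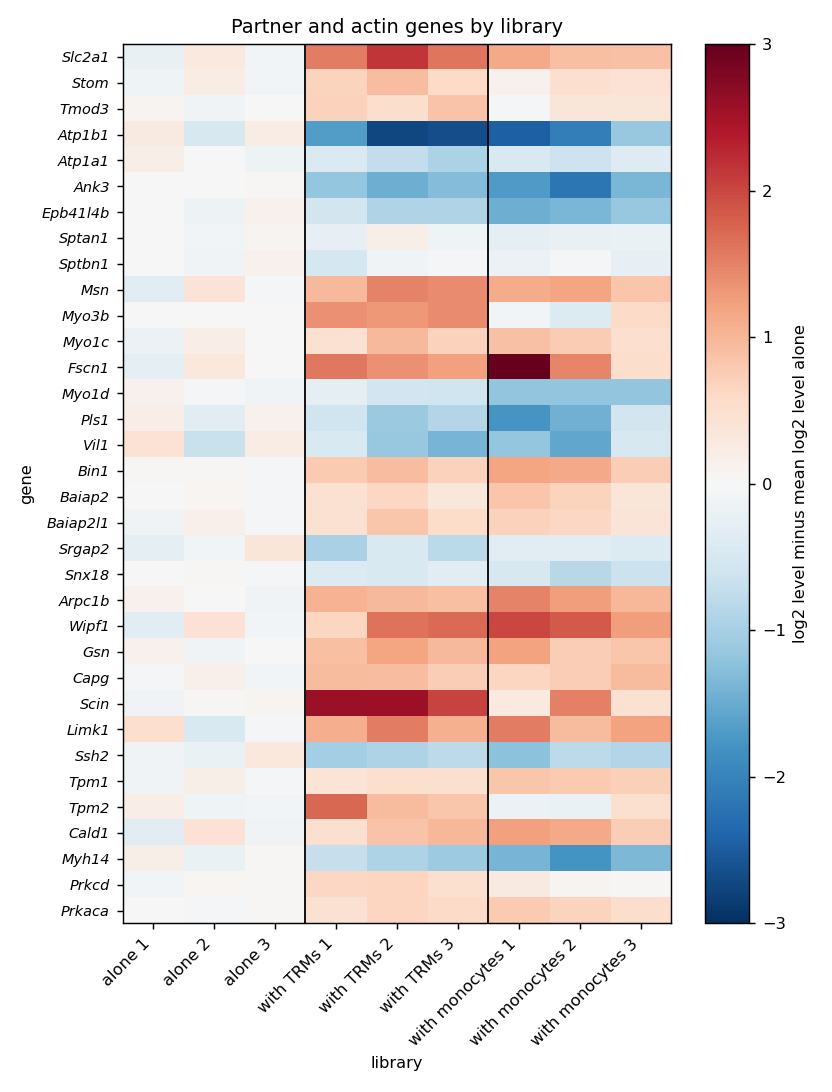
Colour shows the log2 level minus the mean log2 level alone for genes of the lists picked with their values in view (rows) in each of the 9 libraries (columns), on a scale that ends at -3 and 3; black lines part the groups. Slc2a1, Msn, Bin1, Arpc1b and Gsn are red in every co-culture library, Atp1b1, Ank3 and Myh14 are blue in each, and Myo3b is red in each TRM library and in monocyte replicate 3.

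Of 25 genes of the Arp2/3 complex, the nucleator of branched filaments, and its activators, 8 rose and 2 fell with TRMs and 9 rose and 3 fell with monocytes, with medians of 0.22 and 0.37. The risen share was 32% with TRMs and 36% with monocytes, beside 10.2% and 14.7% of all genes, and 15 and 13 of the 25 did not pass. The risen members with TRMs numbered 5 without alone replicate 1, alone replicate 3 or TRM replicate 3 and 4 without TRM replicate 2. The fallen members with TRMs numbered 0 without alone replicate 3 and 1 when TRM replicate 1 or 2 or alone replicate 1 or 2 was left out, and with monocytes 1 without alone replicate 1, alone replicate 3 or monocyte replicate 1. The complex subunit Arpc1b rose from 314 ± 27.3 CPM to 613 ± 29.6 CPM with TRMs and 749 ± 124 CPM with monocytes (limma adjusted p = 0.000502 and 5.93e-05), and Arpc4 rose by 0.59 and 0.56 on the log2 scale (0.0052 and 0.00459). Cortactin (Cttn), which steadies branches, rose 1.47-fold with TRMs (limma adjusted p = 0.00681). It also passed as higher with monocytes (limma adjusted p = 0.037), a call that held in 8 of 17 other settings.

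Of 42 formins and capping, cofilin and severing genes 11 rose and 2 fell with TRMs and 15 rose and 8 fell with monocytes, with medians of 0.22 and 0.17. The risen share was 26.2% with TRMs and 35.7% with monocytes, beside 10.2% and 14.7% of all genes. The fallen share was 4.76% and 19.05%, beside 8.15% and 12.7% of all genes. The TRM counts were 7 higher without alone replicate 3, and 1 lower without alone replicate 1 or TRM replicate 2. Gelsolin (Gsn) and Capg, which sever or cap the fast-growing end that adducin also caps, rose with TRMs by 1.02 and 0.87 on the log2 scale (limma adjusted p = 0.000445 and 0.000624) and with monocytes by 0.93 and 0.78 (0.000553 and 0.000981). Scinderin (Scin), a gelsolin relative, rose from 2.29 ± 0.154 CPM to 12.2 ± 2.55 CPM with TRMs (limma adjusted p = 0.000662) and stood at 4.13 ± 2.03 CPM with monocytes (adjusted p = 0.156). Capzb, the beta subunit of capping protein, rose 1.49-fold and 1.59-fold (0.00531 and 0.0014 by limma). Ssh2, a phosphatase that activates cofilin, fell 1.87-fold and 1.95-fold (limma adjusted p = 0.00302 and 0.00142).

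Of 27 tropomyosin, filamin and non-muscle myosin II genes 8 rose and 1 fell in each co-culture, with medians of 0.32 with TRMs and 0.34 with monocytes. The risen share was 29.6% in each, beside 10.2% of all genes with TRMs and 14.7% with monocytes. The fallen share was 3.70% in each, beside 8.15% and 12.7% of all genes. The risen members with TRMs numbered 2 without alone replicate 1, TRM replicate 2 or TRM replicate 3 and 3 without alone replicate 3, and with monocytes 5 without alone replicate 1. The fallen members numbered 2 with TRMs without alone replicate 2, and 2 with monocytes without alone replicate 2 or monocyte replicate 3. The one that fell was Myh14, the non-muscle myosin IIC heavy chain named above beside Mtss1, from 220 ± 28.4 CPM to 118 ± 16.9 CPM with TRMs and 77.2 ± 12.7 CPM with monocytes (limma adjusted p = 0.00206 and 4.06e-05). Myh10, the myosin IIB heavy chain, rose 2.01-fold with monocytes (limma adjusted p = 0.00707). Tpm1, a tropomyosin that lies along actin filaments, rose 1.72-fold with monocytes (0.000851 by limma), and Tpm2 rose 2.26-fold with TRMs (0.00685). Tpm1 also passed as higher with TRMs (limma adjusted p = 0.0236), a call that held in 12 of 17 other settings, and Tpm2 did not pass with monocytes (0.931). Neither passed between the co-cultures (limma adjusted p = 0.379 for Tpm1 and 0.0771 for Tpm2).

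Protein kinases A and C phosphorylate adducin and lower its hold on actin and spectrin. The catalytic subunit Prkaca rose 1.48-fold with TRMs and 1.58-fold with monocytes (limma adjusted p = 0.00703 and 0.00189). Prkcd rose by 0.58 on the log2 scale with TRMs (limma adjusted p = 0.00525) and had a log2 difference of 0.14 with monocytes (adjusted p = 0.44).

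Between the co-cultures few genes were called: 0.325% of all genes were higher with TRMs than with monocytes and 0.073% lower. In the lists 2 of 205 were higher with TRMs, Myo3b and Myo1d, and 0 lower. At an unadjusted limma p under 0.05 the count was 31, of which 25 were higher with TRMs, and edgeR called 1 and DESeq2 10. The limma count of 2 was 1 without alone replicate 1 or 3, and 0 when any one TRM library or monocyte replicate 1 or 2 was left out. Myo3b was 2.52-fold higher with TRMs (log2 difference 1.33, limma adjusted p = 0.0207), a call lost without any one TRM replicate or monocyte replicate 1 or 2 (0.0654 to 0.0872).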

How the data were processed

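RNA of GFP-positive sorted tumour cells was sequenced from SMART-Seq v4 cDNA in 9 libraries. STAR 2.5, edgeR and mm10 appear in the submitters' processing notes, and no source used here names the counting tool or annotation. The authors deposited a normalised signal for 12339 genes; each value is a whole read count plus 0.5 read, expressed as CPM of a scaled library size (100% whole within 1e-06 of a read). The authors' deposited comparison tables hold log2 fold changes and log2 mean levels, a likelihood-ratio score and a p-value per gene; only their log2 fold changes are quoted.

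Groups came from the co-culture label. Differences were fitted with limma 3.58.1 (trended prior, R 4.3.3) on log2 of the deposited values over all 9 libraries, after edgeR's filterByExpr (at least 10 reads; 13 genes removed, 12326 tested), with two-sided p-values adjusted by Benjamini-Hochberg over all tested genes. The members and lists were chosen with earlier results of these data known, so the 5 genes have no test. From each list up to 4 called genes per comparison were selected by smallest p, beside direct partners of the 5 genes. Selected genes had groups that did not overlap and a mean of at least 5 CPM in the higher group, a limit not set for partners. Only part of the genes so selected is described above, picked with their values in view. Replicates differed beyond counting noise (chi-square per gene 21.1 to 90.5). Gene positions and exon lengths are from GENCODE M21 and promoters from RefSeq. Alternatives were edgeR 4.0.16 and DESeq2 1.42.0 on recovered reads, log2(value + 1), no filter or at least 1 CPM in 3 libraries, library totals, only the groups compared, a replicate block, and each library left out. The fit was tested on simulated data. The counts of 1 list are not reported here.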

Additional observations from a re-analysis of the deposited data

Results flagged for a closer look

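Between the co-cultures Myo3b differed by a log2 value of 1.33 (higher with TRMs, limma adjusted p = 0.0207, 3 libraries a group). Its adjusted p over the alternatives ran from 6.34e-06 to 0.0872. Myo1d, an unconventional myosin, differed by 0.69 (limma adjusted p = 0.0473), being lower than alone in both co-cultures and lowest with monocytes. Its adjusted p over the alternatives ran from 0.000566 to 0.179, and the call held in only 6 of 17 other settings. The call of Myo1d as lower with TRMs than alone held in 13 of 17.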

How the results depend on the processing

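Over 17 other settings for each of 15 differences of the 5 genes (255 values), 253 moved by less than their spread and none of the differences against alone changed sign. The other 2 were Espn on the log2(value + 1) scale, at 2.90 with TRMs and 0.93 with monocytes. Espn left-out values ran from 4.29 to 6.01 with TRMs and from 1.74 to 3.46 with monocytes. For TRM against monocyte, all genes called higher numbered 194 with DESeq2, and those lower 135 with DESeq2, 19 on the log2(value + 1) scale, 16 with library totals and 18 with only the 2 groups compared. List genes called higher numbered 1 with edgeR, library totals or only those groups and 9 with DESeq2, and those lower 1 with DESeq2. With 1 library left out, all genes with TRMs numbered 670 to 1422 higher and 536 to 1172 lower, with monocytes 943 to 1674 lower, and for TRM against monocyte 0 to 106 higher and 0 to 38 lower. List genes numbered 24 to 54 higher and 9 to 23 lower with TRMs, and 0 to 2 higher for TRM against monocyte. The cause was not tested, beyond the fewer samples in each such fit.

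The labels do not say what a shared replicate number stands for. For that reason the numbers were not taken to pair the samples. The correlation of deviations between same-numbered libraries ran from -0.0246 to 0.429, over 0.1 in 5 of 9 pairs, among them all 3 pairs of replicate 1. Whether same-numbered libraries share an effect was not tested. Not every library correlated best with its own number (alone replicate 2 with TRM replicate 3, 0.265). A replicate block gave 61 genes higher and 18 lower for TRM against monocyte, where the main fit gave 40 and 9. It left the other counts over all genes and over all lists within 1.5 times. Depth limits genes with few reads, such as Espn at 26 reads over the 3 libraries alone.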
